A study of Mus musculus with 6 samples.

Results

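The T cell-attracting CXC chemokines and receptors examined here were 8 of the 32285 genes that the libraries list: the ligands Cxcl9, Cxcl10, Cxcl16 and Cxcl12 and the receptors Cxcr3, Cxcr6, Cxcr4 and Ackr3. They were chosen by name, not by a measured value, and all 8 were found. The question was which cell classes of an orthotopic mouse pancreatic tumour carried the RNA of each ligand and each receptor, and whether those levels differed between tumours grown from KPC-OE-MLKL cells and tumours grown from KPC-OE-Vector cells.

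KPC cells are a mouse pancreatic cancer line, and here they overexpressed Mlkl, the pore-forming executioner of necroptosis (OE-MLKL), or held the vector alone (OE-Vector). Both lines were injected into the pancreas of C57BL/6 mice with an intact immune system, and the primary tumours were dissociated and read by 10x Genomics single-cell 3′ sequencing. The labels name 3 tumours per group and give neither age, nor the promoter of the construct, nor whether a line was 1 clone. Matrices were analysed for 1 OE-Vector tumour and for OE-MLKL tumours 1, 2 and 3, and the other OE-Vector tumours were not analysed here. The labels describe the material only as tumour cells and no sort is named.

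CXC chemokines are small secreted proteins that guide leukocytes through G protein-coupled receptors. Cxcl9 and Cxcl10 are induced by interferons and bind Cxcr3, which activated T cells carry. Cxcl16 is made as a membrane-bound protein that can be shed, and binds Cxcr6, a receptor of tissue-resident and effector T cells. Cxcl12 is a stromal chemokine that binds Cxcr4, while Ackr3 is an atypical receptor that takes Cxcl12 up without G protein signalling.

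Cxcl9 and Cxcl10 lie next to each other on the minus strand of chromosome 5 in build GRCm38, Cxcl9 (ENSMUSG00000029417) at chr5:92321347-92328079 and Cxcl10 (ENSMUSG00000034855) at chr5:92346638-92348889, 18558 bases apart. Cxcl16 lies at chr11:70453983-70459984 on the minus strand and Cxcl12 at chr6:117168535-117181367 on the plus strand. Of the receptors, Cxcr3 lies at chrX:101731535-101734269 (minus), Cxcr6 at chr9:123806475-123811760 (plus), Cxcr4 at chr1:128588199-128592293 (minus) and Ackr3 at chr1:90203980-90216751 (plus). Cxcl10 overlaps Art3, Cxcl16 overlaps Zmynd15 and Cxcr6 overlaps Fyco1, each on the opposite strand. Whether strand was used in the counting is not given in the sources used here. Whether reads of the partners were counted with these 3 genes was not tested.

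Promoters of the neighbouring interferon-induced ligands are shown because both genes were highest in endothelial-like cells, with scored doublets kept, among the 13 classes tested. Yet neutrophil-like and fibroblast-like cells were above the level of cell-free RNA for Cxcl10 and not for Cxcl9. They are the 250 bases before each start in RefSeq, build GRCm38.p6, on the minus strand, Cxcl9 at chr5:92328080-92328329 and Cxcl10 at chr5:92348890-92349139. Capitals mark matches, on either strand, to GAAANNGAAA, the core of an interferon-stimulated response element, and to GGGANNTTCC, a kappaB form.
Cxcl9: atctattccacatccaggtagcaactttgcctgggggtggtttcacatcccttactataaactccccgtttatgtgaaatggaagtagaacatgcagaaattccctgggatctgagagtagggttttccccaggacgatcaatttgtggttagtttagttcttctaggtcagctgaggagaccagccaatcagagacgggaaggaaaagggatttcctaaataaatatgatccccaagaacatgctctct
Cxcl10: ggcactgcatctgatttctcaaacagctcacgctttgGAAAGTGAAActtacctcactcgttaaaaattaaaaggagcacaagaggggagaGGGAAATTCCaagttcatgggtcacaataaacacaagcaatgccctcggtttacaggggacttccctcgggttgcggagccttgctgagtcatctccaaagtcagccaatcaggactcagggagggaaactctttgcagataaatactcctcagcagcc
Cxcl10 held 1 match to GAAANNGAAA, which began 213 bases before the start, and 1 match to GGGANNTTCC, which began 159 bases before it, and these do not overlap. Cxcl9 held neither, and no member held TTCNNNGAA, a gamma-activated site form, in this window. Of 32851 RefSeq promoters of the same length, 2.98% held GAAANNGAAA, 1.21% GGGANNTTCC and 7.02% TTCNNNGAA. The table had a promoter for 7 of the 8 members, and the other 5 held none of these letters.

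Cells were assigned to classes by marker genes, none of them a member, and are called X-like. The 4 libraries held 150591289 to 169978362 UMIs, 10996 to 15589 cells of each received a class, and 13 classes had at least 10 cells in every library. In each of these classes every marker of its own list was detected in all 4 libraries. Any pair of libraries shared 73 to 134 cell barcodes. Levels are UMIs of a gene per 1000000 UMIs of the class (CPM), summed per library, and the free RNA level is the same quantity in barcodes with at most 100 UMIs. Mlkl in cancer-like cells was 16.1 CPM in OE-Vector and 8.62, 12.8 and 19.4 CPM in OE-MLKL 1, 2 and 3 (log2 fold change −0.37, SE 0.38, adjusted p = 0.999, edgeR), so only OE-MLKL 3 held more Mlkl RNA than the library labelled OE-Vector. The labels do not say whether the construct carries the 3′ end of the gene that this assay reads. All directions below are therefore those of the labels. In summed counts, fewer expressing cells and less RNA per expressing cell cannot be told apart.

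The ligands and receptors fell into different compartments. Among the 13 classes, Cxcl9 and Cxcl10 RNA was highest in endothelial-like cells, Cxcl16 in macrophage-like cells and Cxcl12 in fibroblast-like cells. The endothelial-like class had 18 to 36 cells per library, with scored doublets kept. They were removed in the cancer-like, neutrophil-like, macrophage-like and T cell-like cells it is ranked against. Its rank with scored doublets removed was not tested. With each cell thinned to the same number of UMIs, few endothelial-like cells held Cxcl10. It was found in 4 of 32 cells of OE-Vector and in 1 of 21, 3 of 36 and 4 of 16 of OE-MLKL 1, 2 and 3. For Cxcl9 these were 13, 3, 9 and 6 cells. Cxcr3 and Cxcr6 were highest in T cell-like classes, whereas Cxcr4 was highest in neutrophil-like cells and Ackr3 in cancer-like cells. So only 2 of the 4 receptors had their highest level in a T cell-like class.

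**Figure D1:**
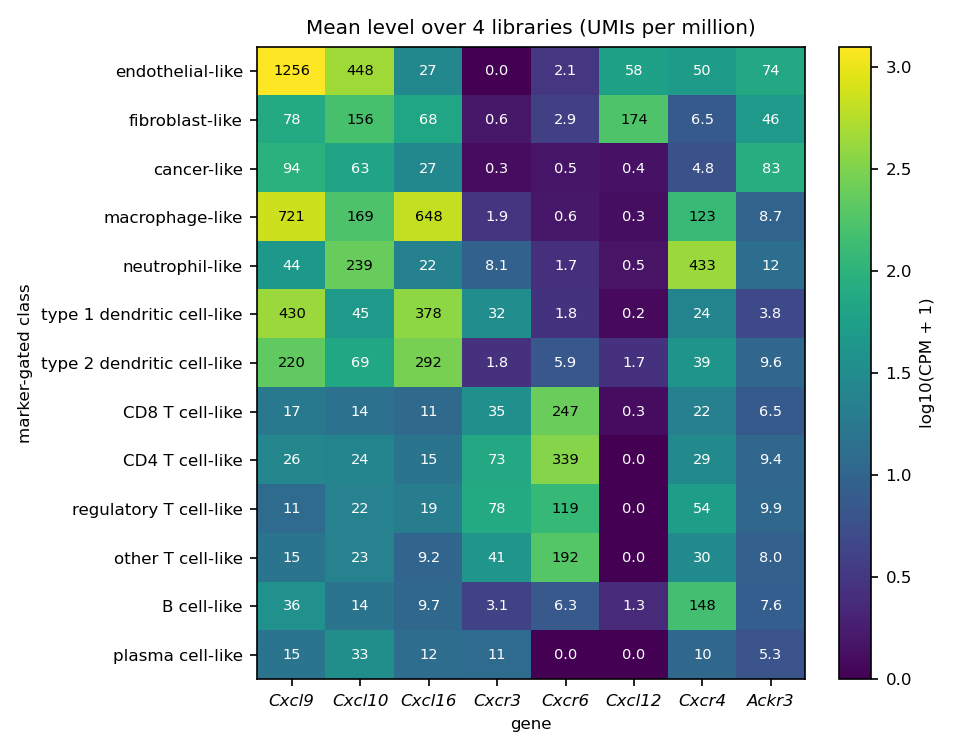
Mean level of each of the 8 genes (columns) in 13 cell classes (rows) over 4 libraries, in CPM, with lighter cells for higher values on a log scale. The ligands peak in endothelial-like, macrophage-like and fibroblast-like rows, Cxcr3 and Cxcr6 in the T cell-like rows, Cxcr4 in neutrophil-like and Ackr3 in cancer-like cells.

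Cxcl9, the interferon-gamma-induced ligand of Cxcr3, was at 1448 CPM in the endothelial-like cells of OE-Vector and at 816.9, 1146 and 1614 CPM in those of OE-MLKL 1, 2 and 3, a mean of 1256 ± 351 CPM (SD, n = 4). Macrophage-like cells followed with 727 CPM in OE-Vector and 332, 770.9 and 1052 CPM in OE-MLKL 1, 2 and 3. The endothelial-like level was above the macrophage-like level in 4 of 4 libraries. Type 1 dendritic cell-like cells, the cross-presenting dendritic cells, were the third class with 203 CPM in OE-Vector and 262, 801 and 453 CPM in OE-MLKL 1, 2 and 3. They were below macrophage-like cells in 3 of 4 libraries, so these neighbours were not separated beyond their spread. Against free RNA, Cxcl9 was 6.18 to 13.2 times higher in endothelial-like and 3.11 to 6.61 times higher in macrophage-like cells.

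Cancer-like cells held less Cxcl9 than free RNA in all 4 libraries, with 162 CPM in OE-Vector and 14.2, 35.6 and 165 CPM in OE-MLKL 1, 2 and 3 against free RNA of 234, 61.8, 116.7 and 239.999 CPM. The UMIs were not spread evenly, though: the top 10% of cancer-like cells held 83.8 to 100% of them, and 1 cell of OE-Vector had 329. The class average therefore hides a minority of cells with high counts. Because cancer-like cells were many and deep, they still gave 23.4 to 47.8% of all Cxcl9 UMIs of classed cells, while macrophage-like cells gave 44.8 to 72.0%. Endothelial-like cells gave 0.846 to 2.90%.

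Cxcl10, the second interferon-induced Cxcr3 ligand, was at 829 CPM in the endothelial-like cells of OE-Vector and at 180.1, 323 and 459 CPM in those of OE-MLKL 1, 2 and 3, a mean of 448 ± 279 CPM (SD, n = 4). In this class the OE-Vector value stood above all 3 OE-MLKL values. Neutrophil-like cells were next with 318 CPM in OE-Vector and 107.8, 234 and 294 CPM in OE-MLKL 1, 2 and 3, a place they did not take for Cxcl9, where they stayed below free RNA in all 4 libraries. Their Cxcl10 was 2.15 to 3.77 times the free RNA level. Macrophage-like cells held 182, 141, 166 and 189 CPM and fibroblast-like cells 179, 159, 90.7 and 194 CPM in OE-Vector and OE-MLKL 1, 2 and 3, and macrophage-like cells were the higher in 2 of 4 libraries, so these classes were not separated. Of the classes too small for a test, mesothelial-like cells held 1120.4 CPM in 4 cells of OE-Vector and 1010.5 CPM in 6 cells of OE-MLKL 1, above the endothelial-like level, and 174 CPM in 3 cells of OE-MLKL 3, below it. Monocyte-like cells were above endothelial-like cells in OE-MLKL 2, at 659 CPM from 22 cells. By number, cancer-like cells gave 47.8 to 55.8% of Cxcl10 UMIs of classed cells and macrophage-like cells 20.4 to 34.5%. Endothelial-like cells gave 0.645 to 3.02%.

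Within macrophage-like cells the Cxcr3 ligands tended to occur in the same cells. With each cell thinned to 1000 UMIs, 14.8 to 16.8% of cells with a Cxcl9 UMI also had a Cxcl10 UMI, against 4.38 to 5.86% of cells without Cxcl9. Among cancer-like cells the shares were 17.9 to 21.9% with Cxcl9 and 1.55 to 3.88% without it. Cxcl16 differed less with Cxcl9: 50.6 to 55.9% of macrophage-like cells with Cxcl9 and 43.3 to 45.6% of those without it had a Cxcl16 UMI. In CD8 T cell-like cells, taken as a class that should make little Cxcl10, 0.654 to 1.85% of thinned cells had a UMI of it. Median depth was 4155 to 8631 UMIs in macrophage-like and 3476 to 4227 UMIs in CD8 T cell-like cells.

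Cxcl16, the membrane-bound ligand of Cxcr6, had the steadiest level of the set. Macrophage-like cells held 673 CPM in OE-Vector and 616, 624 and 678 CPM in OE-MLKL 1, 2 and 3, a mean of 648 ± 32.5 CPM (SD, n = 4). Type 1 dendritic cell-like cells held 266, 429, 481 and 335 CPM and type 2 dendritic cell-like cells 138, 352, 415 and 263 CPM in the same order of libraries. The order macrophage-like, type 1, type 2 held in 4 of 4 libraries. Mature dendritic cell-like cells, which were too few for a test with 8 to 42 cells per library, stood above macrophage-like cells in 4 of 4 libraries with 741 CPM in OE-Vector and 782, 718 and 740.4 CPM in OE-MLKL 1, 2 and 3. Thinned to 1000 UMIs, 45.8 to 47.0% of macrophage-like cells had a Cxcl16 UMI in every library, and that class gave 73.3 to 82.2% of the gene's UMIs. Cancer-like cells, at 14.3 to 39.9 CPM, were below free RNA in all 4 libraries.

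Among the 13 classes, Cxcl12, the stromal chemokine, had its highest levels in fibroblast-like and endothelial-like cells. Fibroblast-like cells held 159 CPM in OE-Vector and 212, 181 and 142 CPM in OE-MLKL 1, 2 and 3, which was 52.0 to 126 times the free RNA level. Endothelial-like cells held 50.5, 57.9, 75.2 and 47.6 CPM, below fibroblast-like cells in 4 of 4 libraries. In every other one of the 13 classes the mean over libraries was at most 1.73 CPM. Mesothelial-like cells, too few for a test, held 6 Cxcl12 UMIs in 4 cells of OE-Vector, a higher level than in endothelial-like cells of that library. They held 2 UMIs in 6 cells of OE-MLKL 1 and 1 UMI in 3 cells of OE-MLKL 3. Cxcl12 was also the rarest ligand, with 137 to 257 UMIs per library in classed cells, of which fibroblast-like cells gave 67.6 to 75.5%. Cancer-like cells gave 6.08 to 23.7% and endothelial-like cells 3.11 to 16.2%, but the cancer-like level was below free RNA in 4 of 4 libraries.

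**Figure D2:**
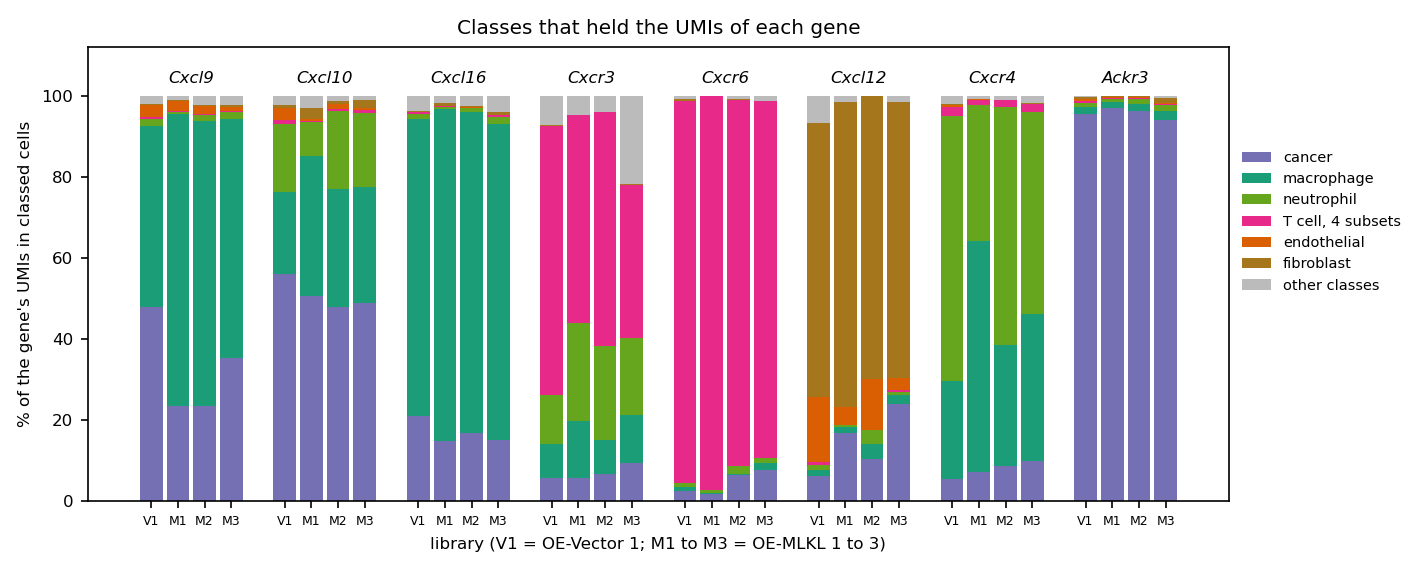
Share of each gene's UMIs, in percent, that came from each cell class, as stacked bars with 1 bar per library and 1 panel per gene. Macrophage-like and cancer-like cells make up most of the Cxcl9, Cxcl10 and Cxcl16 bars, fibroblast-like cells most of Cxcl12, T cell-like classes most of Cxcr6, and cancer-like cells 93.9 to 97.0% of Ackr3.

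Cxcr3, the receptor for Cxcl9 and Cxcl10, was low but sat clearly above free RNA in T cell-like classes. Regulatory T cell-like cells held 68.9 CPM in OE-Vector and 136, 70.3 and 35.6 CPM in OE-MLKL 1, 2 and 3, from 9 to 34 UMIs. CD4 T cell-like cells held 98.5, 91.6, 56.7 and 44.9 CPM, and the order of these classes held in only 2 of 4 libraries. CD8 T cell-like cells held 50.1, 17.7, 35.8 and 37.1 CPM, 9.09 to 14.9 times free RNA. Among the 13 classes, type 1 dendritic cell-like cells were the highest outside the T cells with 33.1, 35.8, 18.9 and 41.2 CPM. They were not separated from CD8 T cell-like cells, which were the higher in 2 of 4 libraries. NK cell-like cells, too few for a test, held 25.6 CPM in OE-Vector from 4 UMIs, and 0, 2 and 10 UMIs in OE-MLKL 1, 2 and 3. Neutrophil-like cells held 7.46 to 9.18 CPM, above free RNA in all 4 libraries, and by their number they gave 12.1 to 24.2% of the gene's UMIs.

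Cxcr6, the Cxcl16 receptor, was found mainly in T cells. CD4 T cell-like cells held 566 CPM in OE-Vector and 221, 257 and 311 CPM in OE-MLKL 1, 2 and 3, and CD8 T cell-like cells 368, 217, 143 and 259 CPM. The CD4 value was the higher in 4 of 4 libraries. Other T cell-like cells met no subset rule, or had a CD8 marker beside a CD4 or regulatory one. They held 383, 148, 96.2 and 142 CPM. Among the 13 classes the highest mean outside the T cells was 6.25 CPM, in B cell-like cells, where 1 library held 1 UMI and the others none. Of the classes too small for a test, monocyte-like cells held 0 to 5 Cxcr6 UMIs per library and NK cell-like cells 0 to 4. By number, CD8 T cell-like cells gave the largest share of Cxcr6 UMIs, 39.7 to 73.1%.

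Whether Cxcr3 and Cxcr6 were linked cell by cell was not tested, and few cells had a Cxcr3 UMI at this depth. Among all T cell-like cells thinned to 1000 UMIs, 17.9 to 30.5% of cells with a Cxcr3 UMI and 16.5 to 29.6% of cells without it had a Cxcr6 UMI. The share of macrophage-like cells with a Cxcr6 UMI, as a background, was at most 0.126% in the same thinned counts.

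Cxcr4, the signalling receptor of Cxcl12, was highest in neutrophil-like cells with 685 CPM in OE-Vector and 336, 354 and 358 CPM in OE-MLKL 1, 2 and 3. The 3 OE-MLKL values lay close together (349 ± 12.0 CPM, SD, n = 3), and the OE-Vector value stood apart from them. B cell-like cells held 156, 187, 125 and 125 CPM from 5 to 59 UMIs, and macrophage-like cells 118, 180.0, 84.5 and 108 CPM. NK cell-like cells, too few for a test, held 166 CPM in OE-Vector from 26 UMIs in 54 cells, above both of these classes. In OE-MLKL 1, 2 and 3 they held 0, 6 and 38 Cxcr4 UMIs in 3, 30 and 102 cells. T cell-like classes were low: CD8, CD4 and other T cell-like cells were below free RNA in all 4 libraries, at 0.242 to 0.426, 0.298 to 0.679 and 0.365 to 0.731 times its level, and regulatory T cell-like cells above it in 2. Neutrophil-like and macrophage-like cells together with cancer-like cells gave nearly all Cxcr4 UMIs, with 33.7 to 65.4% from neutrophil-like cells alone.

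Ackr3, the scavenger of Cxcl12, was at 101 CPM in the cancer-like cells of OE-Vector and at 86.0, 73.7 and 72.2 CPM in those of OE-MLKL 1, 2 and 3, and these cells gave 93.9 to 97.0% of its UMIs. Free RNA held 69.2, 86.1, 71.4 and 40.1 CPM, so cancer-like cells were above it in 3 of 4 libraries and by at most 1.80 times. Unlike Cxcl9 and Cxcl10 the RNA was spread over many cells, with 30.9 to 37.6% of UMIs in the top 10% of cancer-like cells. Endothelial-like cells held 82.1, 109, 44.2 and 59.5 CPM and fibroblast-like cells 69.8, 26.2, 37.8 and 48.6 CPM. Against free RNA these were above in 3 of 4 libraries for endothelial-like cells (0.620 to 1.48 times) and in 2 of 4 for fibroblast-like cells (0.304 to 1.21 times). The cancer-like level was above the endothelial-like level in 3 of 4 libraries, so these neighbours were not separated beyond their spread. Monocyte-like cells, too few for a test, held 22 Ackr3 UMIs in 24 cells of OE-MLKL 3, a higher level than in cancer-like cells of that library. In OE-Vector and OE-MLKL 1 and 2 they held 5, 1 and 5 UMIs in 105, 9 and 22 cells. Cancer-like cells, which gave most Ackr3 UMIs, held at most 0.890 CPM of Cxcl12.

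**Figure D3:**
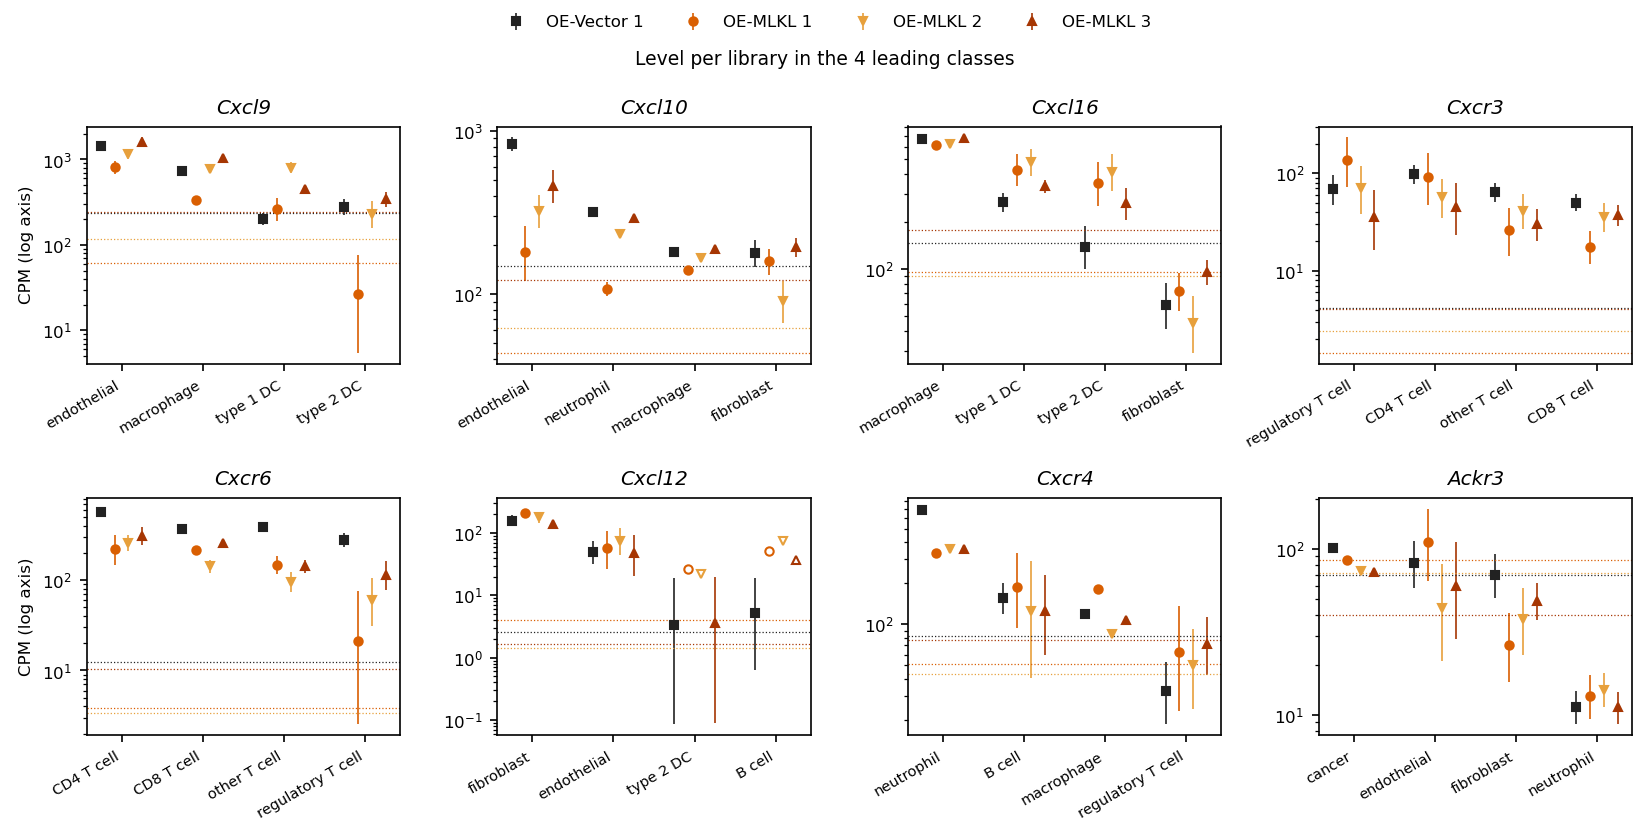
Level of each gene in CPM (log axis) in its 4 leading classes, 1 panel per gene and 1 point per library, with bars for the 95% exact Poisson interval. Dotted lines give the free RNA level of each library and open symbols at the 3-count floor stand for 0 UMIs. Cxcl16 in macrophage-like cells varies least between libraries, and Cxcr4 in neutrophil-like cells shows OE-Vector above the 3 OE-MLKL libraries.

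The levels in the libraries labelled OE-MLKL were then compared with those in the library labelled OE-Vector, class by class, by edgeR's quasi-likelihood test on the summed counts of all genes. Of 104 pairs of a member and a class, 64 passed the filter on low counts and 1 passed the adjusted threshold of 0.05, a threshold that 0.146% of all tested genes passed over the 13 classes: Cxcr6 fell in regulatory T cell-like cells. Unadjusted p was under 0.05 for 12 of the 64 pairs as lower and for 3 as higher in OE-MLKL, or 18.8% and 4.69%, against 2.84% and 2.46% of all genes. Of the lower pairs, Cxcl10 and Cxcl16 in cancer-like and Cxcl10 in regulatory and other T cell-like cells were below free RNA in all 4 libraries. The 3 higher pairs were above it in 2 or 3 libraries. Cxcl10 in regulatory T cell-like cells passed the filter only through OE-Vector, with 29 UMIs against 0, 3 and 4. The part of these limits in the share of lower pairs was not tested. Leaving out OE-MLKL 1 or OE-MLKL 2 left 0 calls and leaving out OE-MLKL 3 left 11 of 56 pairs (19.6%), among them Cxcr6 in all 4 T cell-like classes and Cxcr4 in neutrophil-like cells. Without OE-MLKL 3 the fits also called 3.12% of all genes, with 10.3% in neutrophil-like, 6.71% in CD8, 3.34% in other, 2.2% in CD4 and 1.68% in regulatory T cell-like cells. In 22 of the 64 pairs (34.4%) all 3 OE-MLKL libraries lay below OE-Vector and in 8 (12.5%) all lay above, against 19.3% and 28.2% of all tested genes. The pairs share libraries and free RNA and are not independent. With 1 library against 3, an exact permutation test cannot give a p under 0.25, and edgeR had 2 residual degrees of freedom, all within OE-MLKL, so the lone OE-Vector library is assumed to vary as the others do.

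Calls among all genes were few in each class. The share of tested genes called was 0% in cancer-like, neutrophil-like, macrophage-like and CD8 T cell-like cells, 0.00881% in all T cell-like cells as 1 class, 0.0112% in fibroblast-like, 0.0812% in endothelial-like, 0.103% in other T cell-like and 0.255% in regulatory T cell-like cells. It was 0.368% in type 1 dendritic cell-like, 0.381% in type 2 dendritic cell-like, 0.596% in CD4 T cell-like, 1.24% in plasma cell-like and 1.51% in B cell-like cells. In the 4 classes with 0 calls, edgeR gave an unadjusted p under 0.05 for 718 of 16870 tested genes in cancer-like and 1014 of 12488 in neutrophil-like cells. It did so for 736 of 13415 in macrophage-like and 456 of 10298 in CD8 T cell-like cells. DESeq2 called 85, 84, 59 and 1 genes in these classes. The median log2 fold change of the members that passed the filter was −0.88 in cancer-like, −0.81 in neutrophil-like, −0.17 in macrophage-like and −0.66 in CD8 T cell-like cells, while that of all tested genes was 0.04, 0.04, 0.04 and 0.03. It was 0.57 in type 1 and 0.64 in type 2 dendritic cell-like cells, where all tested genes stood at 0.08 and 0.05.

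**Figure D4:**
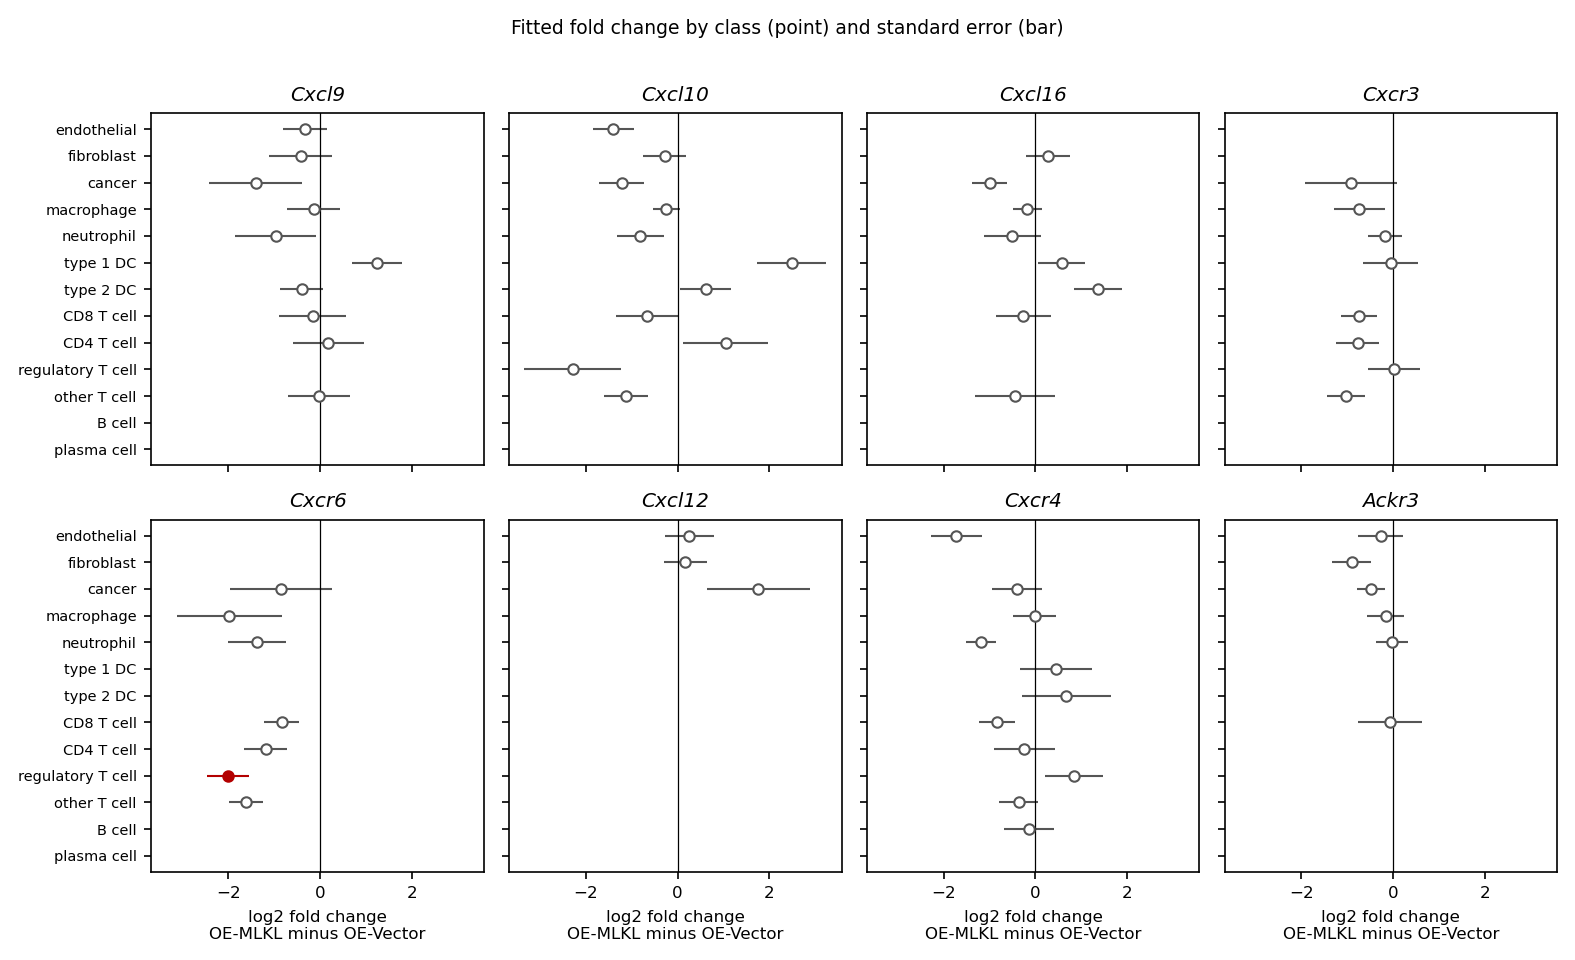
Log2 fold change of each member, OE-MLKL against OE-Vector, with its SE as a bar, by cell class (edgeR, 1 library against 3). The filled red point, the only one with an adjusted p under 0.05, is Cxcr6 in regulatory T cell-like cells at −2.01, and points left of 0 are lower in OE-MLKL.

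Regulatory T cell-like cells were T cells with a Foxp3 UMI, or with both Ikzf2 and Il2ra, and without a CD8 marker. In this class Cxcr6 was at 279.8 CPM in OE-Vector and at 21.0, 60.2 and 115 CPM in OE-MLKL 1, 2 and 3. These values rest on 138 UMIs in 93 cells, and on 2 UMIs in 31 cells, 12 in 63 and 29 in 81. Every OE-MLKL library lay below OE-Vector, and the log2 fold change was −2.01 (SE 0.46, adjusted p = 0.00796, edgeR). The adjusted p was 0.9998 with DESeq2, 0.276 without OE-MLKL 1, 0.837 without OE-MLKL 2 and 0.129 where a mean of 20 UMIs was required, and the fold change stayed between −1.77 and −2.60 under every alternative tried. With cells thinned to 1000 UMIs, a Cxcr6 UMI was found in 22.6% (95% exact interval 14.6 to 32.4%) of the OE-Vector cells, against 3.28% and 7.41% in OE-MLKL 2 and 3. In OE-MLKL 1 it was found in 0 of 30 cells, which allows a share of up to 10.0% by the limit of 3 counts and up to 11.6% by the exact interval. Median depth was 3910 UMIs in OE-Vector and 2399 to 2480 in OE-MLKL.

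Parts of the make-up of this class moved with the labels as well. Foxp3 was at 292 CPM in OE-Vector and 525, 547 and 495 CPM in OE-MLKL 1, 2 and 3. Il2ra, the high-affinity interleukin receptor chain, was at 821, 262, 432 and 673 CPM, and Ikzf2 at 1273, 1344, 1310 and 1735 CPM. The regulatory list of these 3 genes summed to 2386 CPM in OE-Vector and 2131, 2288 and 2903 CPM in OE-MLKL, so OE-Vector lay among the OE-MLKL libraries. The summed level of the 7 NK cell markers was 466 CPM in OE-Vector and 0, 15.1 and 67.3 CPM in OE-MLKL, and the granzyme gene Gzma alone was at 432 CPM and 0, 0 and 11.9 CPM. Of the other NK markers, Klra8 and Klra4 were at 0 in all 4 libraries and Ncr1 at 0 in OE-MLKL, Klre1 was at 20.3 CPM in OE-Vector and 0, 10.0 and 15.8 CPM in OE-MLKL, and Klrb1c and Eomes were higher in OE-MLKL 3, at 31.7 and 7.92 CPM, than in OE-Vector, at 8.11 and 2.03 CPM. The gamma-delta T cell list, at 30.4 CPM in OE-Vector and 0, 5.02 and 3.96 CPM, the B cell list, at 24.3 CPM against 3.96 to 15.1 CPM, the monocyte list, at 904 CPM and 315, 833 and 721 CPM, and the type 1 dendritic cell list, at 279.8 CPM and 94.5, 120.4 and 190.1 CPM, were also lower in all 3 OE-MLKL libraries. So was the T cell list, at 5198 CPM and 4158, 4130 and 4844 CPM. Higher in all 3 were the enterocyte list, at 81.1 CPM in OE-Vector and 157, 105 and 313 CPM, and the acinar list, at 14.2 CPM and 94.5, 35.1 and 15.8 CPM. Cells without a Foxp3 UMI held 113 of the 138 Cxcr6 UMIs of this class in OE-Vector, in 37 of 93 cells. In OE-MLKL 1, 2 and 3 they held 2 of 2, 5 of 12 and 22 of 29 UMIs, in 8 of 31, 14 of 63 and 28 of 81 cells. Among cells with a Foxp3 UMI, Cxcr6 was at 90.1 CPM in OE-Vector (95% exact Poisson interval 58.3 to 133) and at 46.7 (18.8 to 96.3) and 43.1 CPM (17.3 to 88.9) in OE-MLKL 2 and 3. In OE-MLKL 1 no Cxcr6 UMI was found in 23 such cells, an interval that reaches 52.5 CPM. These intervals overlap with that of OE-Vector except for OE-MLKL 1, and they cover counting error within a library only. All 3 OE-MLKL values lay below OE-Vector. A difference between the groups among Foxp3-positive cells was not tested. Without the cells that held a Gzma UMI, Cxcr6 was at 263 CPM in OE-Vector and 21.0, 60.2 and 106 CPM in OE-MLKL 1, 2 and 3. The part of these differences in the Cxcr6 call was not tested.

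The other T cell-like classes had lower Cxcr6 in OE-MLKL without passing the threshold. In other T cell-like cells all 3 OE-MLKL libraries lay below OE-Vector at a log2 fold change of −1.61 (SE 0.38, adjusted p = 0.0953, edgeR). That call was made with no filter on low counts (adjusted p = 0.00929), with the stricter gate (0.0484) and without OE-MLKL 3 (6.40e-07). In CD4 T cell-like cells the log2 fold change was −1.19 (SE 0.47, adjusted p = 0.483, edgeR), and in CD8 T cell-like cells −0.84 (SE 0.39, adjusted p = 0.9997, edgeR). Over all T cell-like cells Cxcr6 was at 398 CPM in OE-Vector and 193, 142 and 218 CPM in OE-MLKL (log2 fold change −1.15, SE 0.34, adjusted p = 0.912, edgeR). Without OE-MLKL 3 the adjusted p was 0.0171 in CD4, 0.00835 in CD8 and 4.56e-05 in all T cell-like cells, where 8.13% of all genes were then called. The difference between T cell-like classes in this fold change was not tested.

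**Figure D5:**
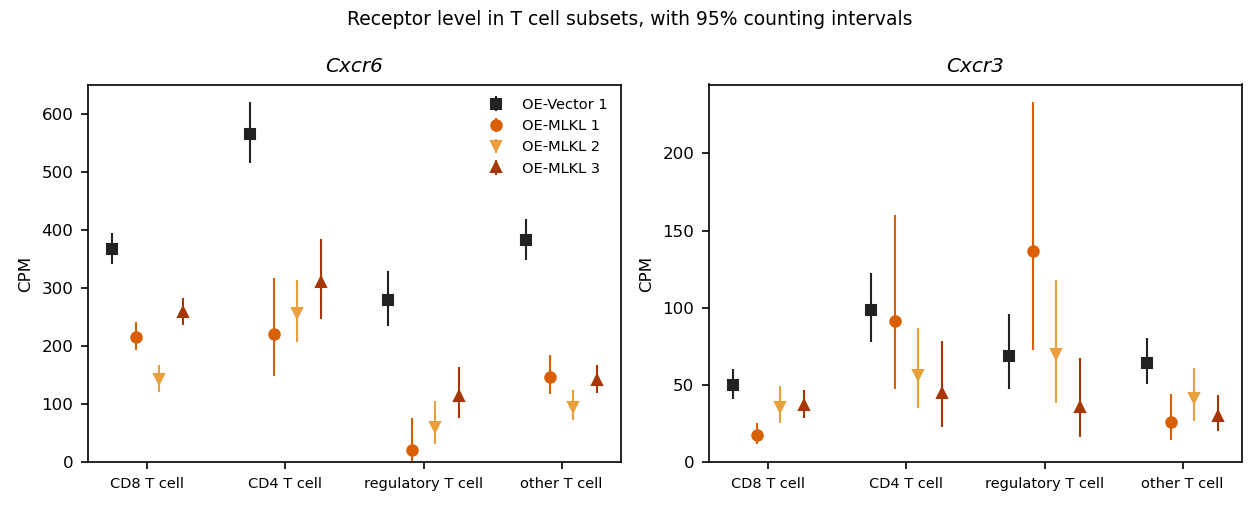
Cxcr6 and Cxcr3 in CPM in 4 T cell-like classes, 1 point per library with its 95% counting interval. Cxcr6 in OE-Vector lies above the 3 OE-MLKL libraries in each class, while Cxcr3 in regulatory T cell-like cells runs from 35.6 to 136 CPM in OE-MLKL around the 68.9 CPM of OE-Vector.

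Cxcr3 showed no such order in regulatory T cell-like cells, where OE-Vector lay among the OE-MLKL libraries (log2 fold change 0.02, SE 0.56, adjusted p = 0.9997, edgeR). In the other T cell-like classes its levels were lower in all 3 OE-MLKL libraries, with log2 fold changes of −0.77 (SE 0.47) in CD4, −0.75 (SE 0.39) in CD8 and −1.02 (SE 0.41) in other T cell-like cells, and none passed the threshold (adjusted p = 0.981, 0.9997 and 0.942, edgeR). Over all T cell-like cells the log2 fold change was −0.87 (SE 0.33, adjusted p = 0.9998, edgeR), and it passed without OE-MLKL 3 (−0.76, adjusted p = 0.0243).

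Among the ligands no difference passed the threshold, and the largest differences were of either sign. Cxcl10 in endothelial-like cells had a log2 fold change of −1.41 (SE 0.45, adjusted p = 0.564, edgeR) from 394 UMIs in 36 cells of OE-Vector and 28 to 77 UMIs in 18 to 36 cells of OE-MLKL. It became 0.96 when scored doublets were removed in every class, and it passed the threshold without OE-MLKL 3 (−1.70, adjusted p = 0.00126, edgeR), where 2.23% of all genes were called. In cancer-like cells Cxcl10 was 104 CPM in OE-Vector and 27.1, 37.7 and 85.1 CPM in OE-MLKL (log2 fold change −1.22, SE 0.49, adjusted p = 0.999, edgeR). Free RNA held 147.8, 43.6, 62.1 and 121.7 CPM of Cxcl10 in the same order, so it moved with the cancer-like level.

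Some ligands were higher in the dendritic cell-like classes of all 3 OE-MLKL libraries, without passing the threshold. In type 1 dendritic cell-like cells Cxcl9 had a log2 fold change of 1.24 (SE 0.55, adjusted p = 0.792, edgeR) and Cxcl10, at 8.28 CPM in OE-Vector and 59.6, 89.6 and 21.8 CPM in OE-MLKL, one of 2.49 (SE 0.75, adjusted p = 0.185, edgeR). Cxcl9 was below free RNA in OE-Vector, at 0.866 times its level, and above it in the 3 OE-MLKL libraries. The Cxcl10 values rest on 6, 10, 19 and 28 UMIs, of which 1 cell held 9 in OE-MLKL 1 and 17 in OE-MLKL 2, and they were below free RNA in OE-Vector and OE-MLKL 3. Cxcl16 in type 2 dendritic cell-like cells, with 41 UMIs in OE-Vector against 40, 56 and 74 in OE-MLKL 1, 2 and 3, had a log2 fold change of 1.37 (SE 0.53, adjusted p = 0.514, edgeR). In OE-Vector this class was below free RNA for Cxcl16, and in the OE-MLKL libraries it was above. The Cxcr3 ligands had no such order in type 2 dendritic cell-like cells, where Cxcl9 was at 280.0 CPM in OE-Vector and 26.4, 229.8 and 344 CPM in OE-MLKL (log2 fold change −0.40, SE 0.47) and Cxcl10 at 57.4 CPM and 8.80, 14.8 and 195 CPM (0.61, SE 0.55). Without OE-MLKL 3 the type 1 values of Cxcl9 and Cxcl10 and the type 2 value of Cxcl16 became 1.37, 3.13 and 1.63 and passed the threshold (adjusted p = 0.0316, 0.0105 and 0.00498, edgeR), in fits that called 3.96% of all genes in type 1 and 3.48% in type 2 dendritic cell-like cells.

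In macrophage-like cells, the leading class for Cxcl16 RNA and a large source of Cxcl9, no ligand passed the threshold. The log2 fold change was −0.14 (SE 0.57) for Cxcl9, −0.24 (SE 0.29) for Cxcl10 and −0.17 (SE 0.32) for Cxcl16 (adjusted p = 0.983, 0.927 and 0.951, edgeR). For Cxcl9 the OE-MLKL libraries themselves ran from 332 to 1052 CPM, with OE-Vector at 727 CPM between them. Cxcl12 in fibroblast-like cells had a log2 fold change of 0.17 (SE 0.46, adjusted p = 0.998, edgeR), and OE-Vector lay among the OE-MLKL libraries.

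The Cxcl12 receptors passed the threshold in no class. Cxcr4 in neutrophil-like cells had a log2 fold change of −1.19 (SE 0.33, unadjusted p = 0.00948, adjusted p = 0.572, edgeR) and passed only without OE-MLKL 3 (adjusted p = 0.0178). In macrophage-like cells, which gave 24.2 to 57.0% of Cxcr4 UMIs and more than neutrophil-like cells in OE-MLKL 1, it was −0.016 (SE 0.47, adjusted p = 0.997, edgeR), with OE-MLKL 1 above OE-Vector and OE-MLKL 2 and 3 below. With cells thinned to 1000 UMIs, 42.4% (95% exact interval 40.9 to 44.0%) of neutrophil-like cells had a Cxcr4 UMI in OE-Vector, against 22.6% in OE-MLKL 1, 24.4% in OE-MLKL 2 and 28.0% in OE-MLKL 3. The thinned counts leave out the shallower cells, and they kept 3930 of 5421 cells in OE-Vector but 792 of 4140 in OE-MLKL 1, where the median depth was 729.5 UMIs against 1173 in OE-Vector. In endothelial-like cells Cxcr4 was at 103 CPM in OE-Vector and 51.5, 26.5 and 17.9 CPM in OE-MLKL, from 49, 8, 6 and 3 UMIs (log2 fold change −1.72, SE 0.56, adjusted p = 0.565, edgeR).

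Ackr3 in cancer-like cells had a log2 fold change of −0.48 (SE 0.31, adjusted p = 0.999, edgeR). In fibroblast-like cells it was −0.90 (SE 0.42, adjusted p = 0.932, edgeR), and it passed only with scored doublets removed in every class, at −2.16 (adjusted p = 0.0414).

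Genes around these chemokines were read from the same fits. Of 45 listed genes, 44 were found (Cxcl11 was not): inducers such as Ifng, proteases that shed or trim the ligands, other lymphocyte CXC genes, and signalling below the receptors. Of 407 tested pairs of a listed gene and 1 of the 13 classes, 1 was called higher and 1 lower, or 0.491% against 0.146% of all genes. Mmp14, a membrane metalloproteinase, was higher in type 2 dendritic cell-like cells of OE-MLKL (log2 fold change 3.39, SE 0.89, adjusted p = 0.0400, edgeR) from 2, 6, 9 and 27 UMIs, all below the free RNA level of 101 to 117 CPM. Cxcl13, the B cell chemokine, was lower in B cell-like cells of OE-MLKL (adjusted p = 1.35e-14, edgeR), but all 211 of its UMIs in OE-Vector came from 1 of 113 cells and the other libraries held 0.

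Ifng and Tnf were among the listed genes nearest to the threshold in classes where a member was mainly found, and neither passed it. Ifng, the main inducer of Cxcl9, was at 213 CPM in regulatory T cell-like cells of OE-Vector and 31.5, 20.1 and 143 CPM in OE-MLKL (log2 fold change −1.65, SE 0.46, adjusted p = 0.110, edgeR), in the same class whose Gzma, NK marker and Foxp3 levels moved with the labels as given above, and their part in it was not tested. Tnf in CD4 T cell-like cells was at 115 CPM and 30.5, 37.8 and 52.4 CPM (adjusted p = 0.0911, edgeR). Below the receptors, the adaptor Arrb1 in neutrophil-like cells had a log2 fold change of −1.04, the receptor kinase Grk6 in fibroblast-like cells 2.53 and the G protein regulator Rgs2 in regulatory T cell-like cells 1.19 (adjusted p = 0.578, 0.517 and 0.863, edgeR).

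Over 35 sums of a library and a class with at least 50 cells each, from 12 classes, the genes whose log2(CPM + 1) followed each member most closely were read out among 15383 genes, as a description without a test, since sums of 1 library share depth and free RNA. Endothelial-like cells, with 18 to 36 cells per library, were not part of these sums. For Cxcl9 they were Psap (r = 0.92), Cxcl16 (0.90) and Slamf8 (0.89), for Cxcl16 Psap (0.95), Cxcl9 (0.90) and Rab7b (0.90), and for Cxcl10 Gbp2 (0.92), Gm34455 (0.88) and Xbp1 (0.87). For Cxcr6 they were the T cell genes Lat (0.98), Cd28 (0.97) and Trbc2 (0.97), which are themselves markers of the T cell gate. Cxcr3 was followed by Rinl (0.94), Tnfrsf18 (0.93) and Gm15472 (0.92), and Cxcl12 by Sfrp1, Efs and Nfasc (each 0.97). Cxcr4 was followed by Ssh2 (0.92), Ptbp3 (0.91) and Rhog (0.91), and Ackr3 by Bace1 (0.90), Steap2 (0.89) and Shisa4 (0.86).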

How the data were processed

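The matrices deposited by the authors give a whole-number UMI count for each gene in each barcode, before any filter or scaling, from Cell Ranger and build mm10 (version 2.1.1 per the labels' processing notes, 7.1.0 per the matrix headers). Intervals and floors cover counting error only.

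Barcodes with at least 500 UMIs, more than 200 genes, at most 10% mitochondrial and at most 5% haemoglobin UMIs were kept, which left 15382 to 23063 cells per library (the study's own filter left 17416 to 27961). Cells were then gated by at least 3 distinct markers and by a minimum ratio of a marker list to its free RNA level. This minimum ran from 0.5, for cancer-like cells, up to 32. Cancer-like cells thus needed no enrichment of their markers over free RNA, and were also required to lack neutrophil and macrophage markers. T cells gated in this way were split by a UMI of Cd8a or Cd8b1 (CD8), of Cd4 or Cd40lg (CD4), and of Foxp3 or both Ikzf2 and Il2ra (regulatory). A cell that met the CD4 and regulatory rules was called regulatory. Cells that met the CD8 rule and another, or no rule, were called other T cell-like. Of the cells kept, 67.3 to 71.5% received a class. Doublets were scored against simulated neighbours and removed in cancer-like, neutrophil-like, macrophage-like and T cell-like cells, since in the other classes the share of cells it marked ran up to all cells of the plasma cell-like class. The members and gene lists were chosen with earlier results of these data known, and the gate thresholds and the alternative that removes doublets in every class were set after seeing the data, as was the split of regulatory T cell-like cells by Foxp3 and Gzma.

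For each class the counts of its cells were added up within a library and tested with edgeR 4.0.16 in R 4.3.3 (TMM scaling, filterByExpr, quasi-likelihood test) after tests on simulated data. P-values were adjusted by Benjamini-Hochberg over all genes of a class at 0.05. SEs were computed as the absolute log2 fold change over the root of F. Each GEO sample is labelled as a separate tumour. Genes named were the 8 members in every class, Mlkl, pathway genes called in any class, otherwise the 3 of each list with the smallest p in a class where a member was mainly found, and the 3 genes most like each member. A pathway gene that this rule names is not reported here. Alternatives were other scalings, DESeq2 1.42.0, other filters on genes and cells, other doublet handling, a stricter gate and leaving out each OE-MLKL library. The other 2 OE-Vector samples were not analysed here, nor were classes with under 10 cells in a library (monocyte, mature dendritic, NK, mesothelial, mast or basophil, acinar and enterocyte-like).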

Additional observations from a re-analysis of the deposited data

Results flagged for a closer look

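Cxcl10 had opposite signs in different classes. All 3 OE-MLKL libraries lay above OE-Vector in type 1 dendritic cell-like cells (log2 fold change 2.49) and all 3 lay below it in cancer-like (−1.22), regulatory T cell-like (−2.28), other T cell-like (−1.12) and endothelial-like cells (−1.41). The log2 fold changes thus differed by 3.71, 4.78, 3.62 and 3.90, and these differences were not tested. With scored doublets removed in every class the endothelial-like value turned to 0.96. The dendritic values rest on 6 to 28 UMIs per library, with the fewest from OE-Vector. The regulatory T cell-like value rests on 29 UMIs from OE-Vector, while OE-MLKL 1, 2 and 3 gave 0, 3 and 4. The filter on low counts did not require high counts in both groups. The type 1 dendritic cell-like and regulatory T cell-like classes passed it for Cxcl10 only through the group with the higher level. How far this selection widened the difference of 4.78 was not tested. In cancer-like, regulatory T cell-like and other T cell-like cells Cxcl10 was below free RNA in all 4 libraries.

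Cxcl16 showed the same kind of split between type 2 dendritic cell-like cells (log2 fold change 1.37, all 3 OE-MLKL libraries above OE-Vector) and cancer-like cells (−0.99, all 3 below), a difference of 2.36 that was not tested. In cancer-like cells its level was below free RNA in all 4 libraries.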

How the results depend on the processing

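Over all classes 148 genes were called. The number was 93 with library size scaling, 245 with DESeq2, 453 with no filter on low counts, 35 with a mean of at least 20 UMIs required, and 234 to 2859 when 1 library was left out (544 without OE-MLKL 1, 234 without 2 and 2859 without 3). The 1 call among the members became 0 with DESeq2 or a mean of at least 20 UMIs, 2 with no filter, 2 with doublets removed in every class (12 classes left), 2 with the stricter gate (9 classes left), and 0 to 11 when 1 library was left out, with 0 without OE-MLKL 1 or 2 and 11 without OE-MLKL 3. With the stricter gate endothelial-like cells fell below 10 in a library, and the highest class became macrophage-like for Cxcl9 (658 CPM) and neutrophil-like for Cxcl10 (219.8 CPM).

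Of 370 alternative fold changes for 32 pairs of a member and a class, 337 kept their sign and side of the threshold, 13 came to pass it, 4 no longer did and 16 changed sign. With doublets removed in every class the log2 fold change became 0.12 for Cxcl9 and 0.96 for Cxcl10 in endothelial-like cells, and 0.28 for Cxcl10 and −0.11 for Cxcl12 in fibroblast-like cells. Cxcl12 in fibroblast-like cells was −0.35 with the stricter gate. Cxcr3 in regulatory T cell-like cells was −0.083 with no filter and −0.10 with doublets kept. Cxcr4 was 0.066 with library size scaling in macrophage-like cells and 0.015 with a mean of at least 20 UMIs in B cell-like cells. Leaving out 1 OE-MLKL library turned the sign within these ranges: Cxcl9 in macrophage-like cells −0.47 to 0.19 (highest without 1), Cxcl12 in fibroblast-like cells −0.021 to 0.36 (lowest without 1), Cxcr3 in regulatory T cell-like cells −0.50 to 0.47 (lowest without 1), Cxcr4 in macrophage-like cells −0.44 to 0.20 (above 0 without 2 or 3) and in B cell-like cells −0.43 to 0.028 (highest without 3), and Ackr3 in endothelial-like cells −0.73 to 0.0082 (highest without 2). For these changes the cause was not tested. Library size scaling moved the median of all genes to 0.26 in neutrophil-like, 0.15 in cancer-like and 0.14 in macrophage-like cells. No paired analysis was possible because only replicate number 1 was analysed in both groups.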
